A study of Mus musculus with 12 samples.

Results

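The nuclear genes for the subunits of the oxidative phosphorylation machinery were followed, complex by complex, in the colon epithelium of mice kept on a high fat (HFD) or a low fat (LFD) diet. Members were chosen by symbol. Genes whose names start with Ndufa, Ndufb, Ndufc, Ndufs or Ndufv were placed in complex I, Sdha to Sdhd in complex II, those starting with Uqcr in complex III, those starting with Cox4i, Cox5, Cox6, Cox7 or Cox8 in complex IV and those starting with Atp5 in complex V, leaving out assembly factors and pseudogene names. Of 30098 genes with a transcript cluster of a single symbol (the group of probes that reads 1 transcript), 86 met the rule: 38 in complex I, 4 in complex II, 8 in complex III, 19 in complex IV and 17 in complex V.

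RNA from C57BL/6 males and females, bought from JAX and kept on the HFD or the LFD for 20 weeks after acclimation, was read on 12 Affymetrix mouse transcriptome arrays. There were 3 arrays in each of 4 groups (male HFD, male LFD, female HFD and female LFD). Epithelium was shaken off the opened colon in EDTA, so each sample was a mixture of epithelial cells with some cells of the wall. The labels number the replicates of a group without saying that each came from its own mouse, so the p-values rest on the spread among these samples alone, part or all of which may be technical. In such bulk RNA, fewer cells of a type and less RNA per cell cannot be told apart.

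The respiratory chain sits in the inner mitochondrial membrane. Complex I takes electrons from NADH and complex II, which is also the succinate dehydrogenase of the TCA cycle, takes them from succinate. Both pass them through ubiquinone to complex III, from there cytochrome c carries them to complex IV, where oxygen is reduced, and complex V makes ATP from the proton gradient that complexes I, III and IV build. Colonocytes meet much of their energy need by oxidising short chain fatty acids such as butyrate in their mitochondria, and the epithelium of the colon is rich in these organelles.

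Values were log2 expression. The medians of the arrays lay between 5.27 and 5.38, and the subunits averaged between 3.73 (Cox8b, the muscle form of a complex IV subunit) and 17.0, with a median of 11.12. A total of 69 subunits averaged at least 8 log2 over the 12 arrays and 17 lay below, so most of the module was read well above the middle of the array. The rule also took in 3 genes annotated as pseudogenes (Ndufs6b, Cox6c2 and Ndufa11b), and near-identical copies such as Ndufb4b and Cox6c2 may share probe signal with their parent genes. Brighter transcripts did not centre on 0 in the diet comparisons. The median HFD minus LFD difference over all 65956 clusters tested was 0.0187 in males and -0.0186 in females, while over the 12108 clusters of at least 8 log2 it was -0.074 and 0.0494, and the subunits are set beside both. Epithelial markers (10 genes, among them Epcam and Vil1) averaged 15.73 to 15.94 in every array, while fibroblast, T and NK cell, B cell and endothelial markers averaged 4.63 to 5.68, close to the medians of the arrays. One array of the LFD males, replicate 3, stood apart with small intestinal markers 1.287 log2 above their 12-array mean.

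In females, the subunits lay higher in mice fed the HFD across all of the complexes. The HFD minus LFD difference was above 0 for 78 of 86 subunits, against 44.6% of all clusters tested, and for 68 of the 69 subunits of at least 8 log2, against 66.5% of clusters that bright. The median was 0.123 log2, within a range of -0.192 to 0.477. No subunit passed the adjusted threshold (0 of 86, with 0.0% of all clusters called), the lowest adjusted p being 0.717 in limma. At an unadjusted p below 0.05, 10 subunits were higher and 0 lower, against 2.29% and 3.91% of all clusters and 5.03% and 2.25% of those of at least 8 log2. Every HFD array lay above every LFD array for 10 subunits and below for 1, against 4.26% and 6.67% of all clusters. All of these 10 averaged at least 8 log2, and the shares among clusters that bright were not counted.

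The complexes had similar medians in this comparison. The median difference was 0.108 in complex I (34 of 38 higher), 0.16 in complex II (4 of 4), 0.132 in complex III (8 of 8), 0.114 in complex IV (15 of 19) and 0.141 in complex V (17 of 17). Within complex I, the 6 core subunits had a median of 0.174 with all 6 higher, and the 32 supernumerary subunits one of 0.0991 with 28 higher. Within complex V, the 5 subunits of the catalytic head and its stalk had a median of 0.0726 and the other 12 one of 0.151. These medians were not tested against each other.

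The elevation rested on a pair of the female HFD arrays. In female HFD replicates 1 and 3 the 86 subunits averaged 0.17 and 0.21 log2 above their 12-array means, with 77 and 80 of them above their own mean. Female HFD replicate 2 stood at -0.011, with 41 of 86 above. The female LFD arrays stood at -0.051, 0.014 and 0.033. Female HFD replicate 2 thus lay within the range of the LFD females, and the groups overlapped. Without female HFD replicate 3 the median difference was 0.0764, and without replicate 2 it was 0.194. Leaving out each of the 12 arrays in turn kept between 68 and 80 subunits higher, while the number at an unadjusted p below 0.05 ran from 3 (without female LFD replicate 1) to 22 (without female LFD replicate 3). The same pair of arrays was the highest of all 12 in complexes I, III, IV and V, as the plot of complex means by array shows. In complex II, male LFD replicate 3 (0.164) lay between them (0.175 and 0.155).

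**Figure D1:**
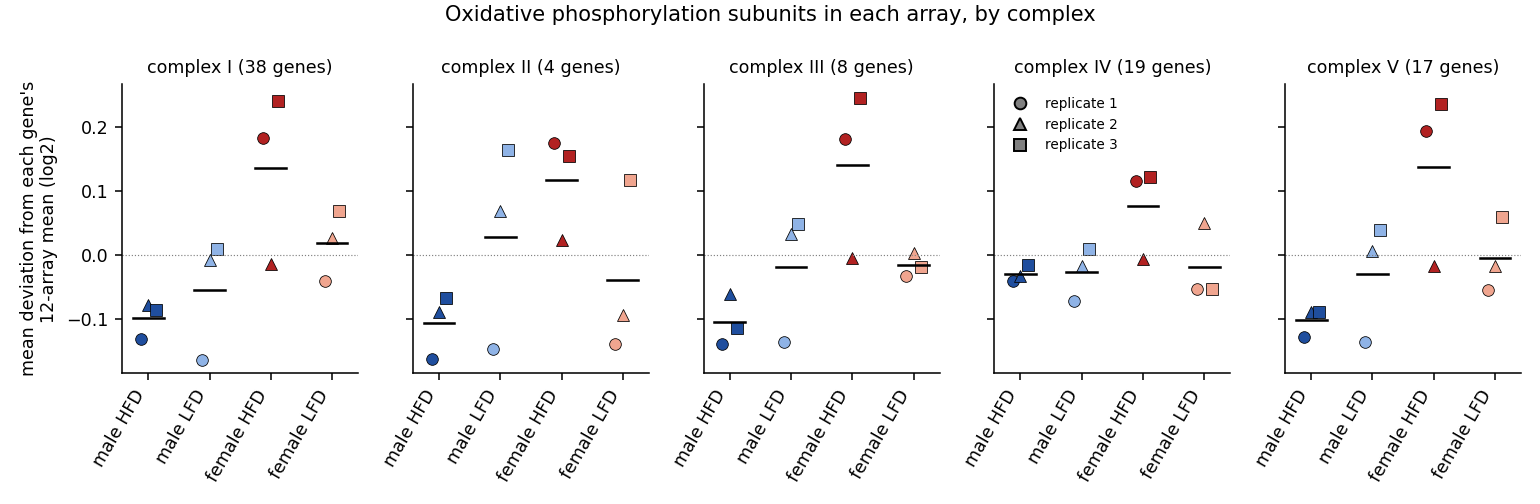
Mean deviation of the subunits of each complex from each gene's own 12-array mean (log2, vertical axis) in the 12 arrays, by group (horizontal axis); symbols are replicates and bars are means of 3 arrays. Female HFD replicates 1 and 3 are the highest arrays in complexes I, III, IV and V, and female HFD replicate 2 lies near the LFD females.

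In males, the diet comparison gave a smaller shift of the opposite sign. The difference was above 0 for 25 of 86 subunits, against 54.9% of all clusters and 27.9% of clusters of at least 8 log2, so the share was near that of bright transcripts in general. The median was -0.0528 (range -0.324 to 0.297) as deposited and 0.00286 after a further quantile normalisation, where its sign turned and 44 subunits were above 0. Centring each array on its median gave -0.115 with 11 above 0. No subunit passed the adjusted threshold (0 of 86, with 0.0% of all clusters called, lowest adjusted p 0.585 in limma). At an unadjusted p below 0.05, 1 subunit was higher and 2 were lower, against 4.94% and 2.94% of all clusters and 2.14% and 6.29% of the bright ones. Every HFD array lay above every LFD array for 2 subunits and below for 7, against 8.86% and 6.19% of all clusters. Of these, 1 and 6 averaged at least 8 log2, and the shares among clusters that bright were not counted.

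By complex, the male medians were -0.0453 in I (12 of 38 higher), -0.134 in II (0 of 4), -0.0722 in III (2 of 8), -0.0213 in IV (8 of 19) and -0.0655 in V (3 of 17), and after quantile normalisation the median of complex I was 0.0318. The 86 subunits averaged -0.113, -0.069 and -0.073 in the male HFD arrays and -0.136, 0 and 0.026 in the male LFD arrays. Male LFD replicate 1 was the lowest of all 12 arrays, with 9 of 86 subunits above their own mean, so the male groups overlapped. Without it the median was -0.1 with 14 subunits higher, and without male LFD replicate 3, the array with small intestinal markers, it was -0.0143 with 36 higher. Without that array and female LFD replicate 2 together, an alternative added after the data were seen, the median was -0.0143 in males and 0.149 in females.

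**Figure D2:**
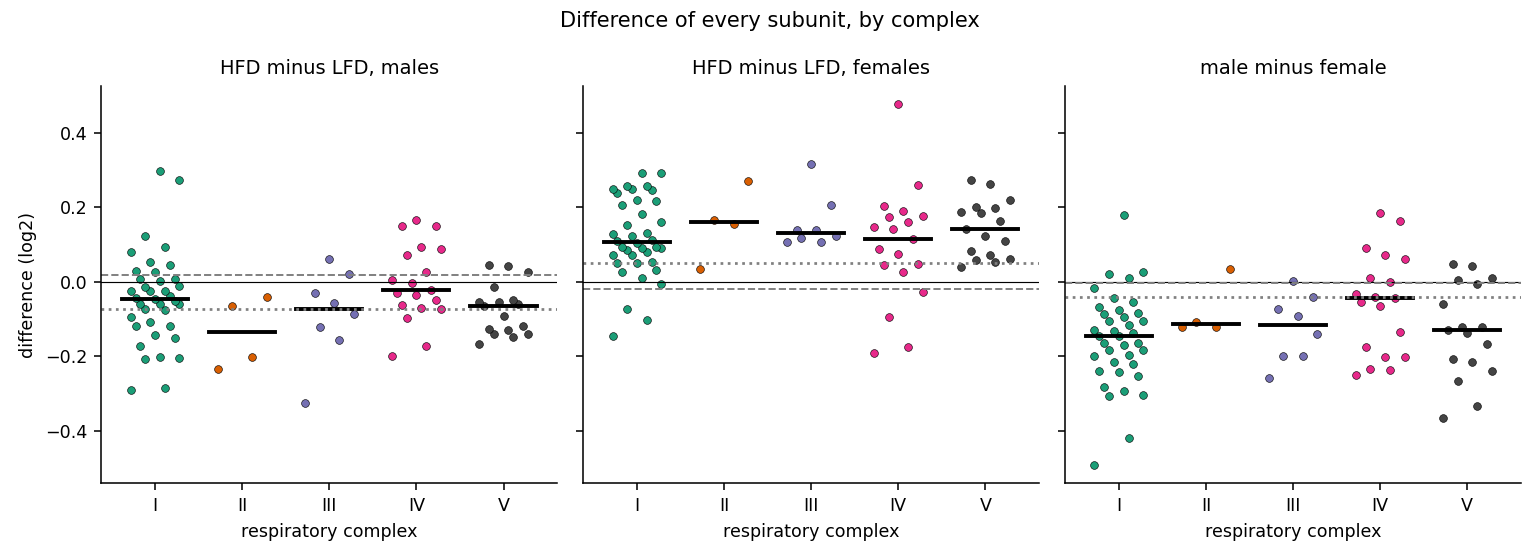
Difference of every subunit (log2, vertical axis) by complex for HFD minus LFD in males, HFD minus LFD in females and male minus female; points are genes, black bars are medians of a complex, the dashed line is the median of all clusters and the dotted line that of clusters of at least 8 log2. In females 78 of 86 points lie above 0, and male minus female 69 of 86 lie below it.

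The diet difference of males minus that of females was below 0 for 77 of 86 subunits. Its median was -0.18, against 0.0371 over all clusters and -0.133 over clusters of at least 8 log2, and 9 subunits were above 0 against 56.4% and 23.9%. By complex it was -0.171 in I, -0.294 in II, -0.212 in III, -0.144 in IV and -0.236 in V. None passed the adjusted threshold (0.0% of all clusters called, lowest adjusted p among the subunits 0.442 in limma), and at an unadjusted p below 0.05 1 lay above 0 and 11 below, against 6.31% and 2.82% of all clusters and 2.65% and 6.53% of the bright ones. The 2 sexes share no array, and 60 of 86 subunits were higher in HFD females and lower in HFD males, against 23.5% of all clusters and 49.4% of the bright ones. The sign of the median held under every scaling tried, as did that of the bright clusters. After quantile normalisation the subunit median was -0.113, with 27 subunits above 0, against -0.0172 over the bright clusters. After centring each array on its median it was -0.291, against -0.244 over the bright clusters. Centring by itself moved the median of all clusters from 0.0371 to -0.0741.

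**Figure D3:**
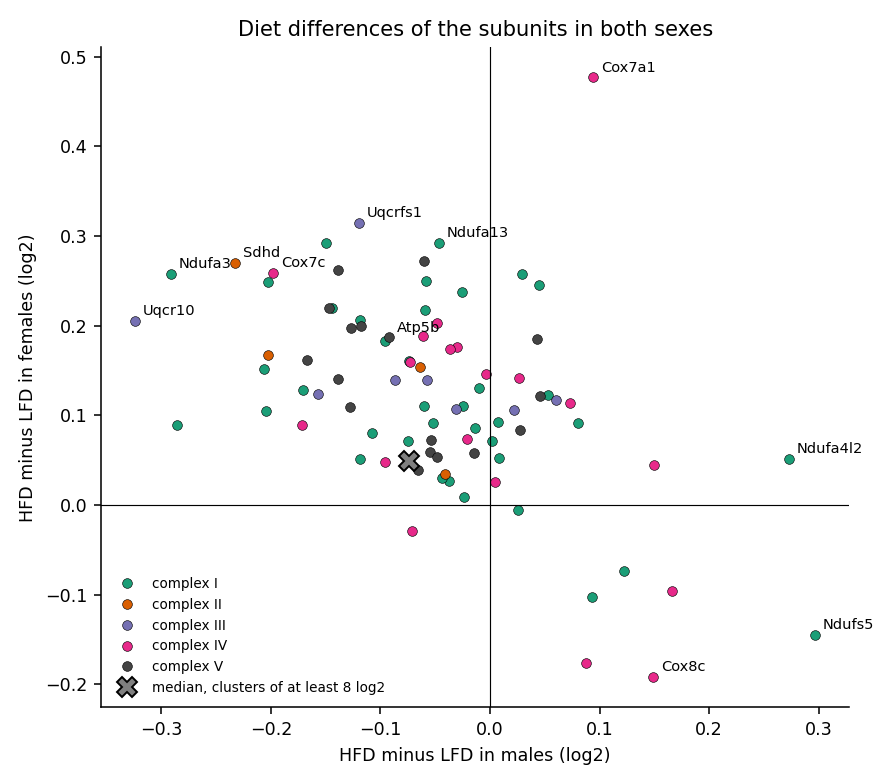
HFD minus LFD difference of each of the 86 subunits in males (log2, horizontal axis) and in females (log2, vertical axis), coloured by complex; the cross is the median of the clusters of at least 8 log2. A total of 60 points lie in the upper left, higher in HFD females and lower in HFD males, around and above the cross.

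Among the peripheral and membrane subunits of complex IV, Cox7c, a small subunit of the enzyme's membrane part, had the smallest p of the 86 when the diet effect of males was set against that of females (unadjusted p 0.00342 in limma). It read 10.59, 10.55 and 10.55 log2 in the male HFD arrays and 10.69, 10.80 and 10.80 in the male LFD arrays. In females it read 11.06, 11.04 and 11.03 on the HFD and 10.62, 10.80 and 10.93 on the LFD. The HFD arrays lay below all LFD arrays in males and above all of them in females. The difference was -0.198 ± 0.0883 (SE) in males and 0.259 ± 0.0883 in females, and the difference between these was -0.457 ± 0.125, with an adjusted p of 0.442 in limma. Atp5b was the other of the 2 subunits whose arrays lay apart in opposite directions in the 2 sexes, as did 1.13% of all clusters tested.

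Cox7a1, which in mammals is the heart and muscle form of subunit VIIa, had the largest female difference of the 86. The HFD females read 13.02, 12.50 and 12.80 and the LFD females 12.32, 12.31 and 12.26, with no overlap. The difference was 0.477 ± 0.152 (1.39-fold), with an adjusted p of 0.717 in limma. HFD males read 12.20, 12.50 and 12.35 and LFD males 12.07, 12.13 and 12.57, which overlapped (0.0941 ± 0.152). It was also the sole subunit with an unadjusted p below 0.05 (0.0215) in the diet difference averaged over the sexes, at 0.285 ± 0.108 with an adjusted p of 0.936, where 2.39% of all clusters were higher and 2.71% lower at that level (2.0% and 3.36% of bright ones). In that averaged comparison 62 of 86 subunits were above 0 (50.8% of all clusters and 47.0% of bright ones), with a median of 0.0363 and 0 past the adjusted threshold (0.0% called).

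The other forms of the same subunit had smaller differences. Cox7a2, the form of most tissues, was 0.176 ± 0.128 higher in HFD females and -0.0303 ± 0.128 in males, and Cox7a2l was 0.0892 ± 0.103 and -0.172 ± 0.103. Neither reached an unadjusted p of 0.05 in a diet comparison. Cox8a, the general form of subunit VIII, read 16.04, 15.89 and 15.94 in HFD females and 15.80, 15.73 and 15.83 in LFD females. These did not overlap, with a difference of 0.174 ± 0.0788 and an adjusted p of 0.802 in limma. Its relatives Cox8b and Cox8c averaged 3.73 and 5.43 log2, below and just above the medians of the arrays, and differed by 0.0258 ± 0.113 and -0.192 ± 0.128.

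For the regulatory subunit IV, Cox4i1 differed by 0.048 ± 0.109 in females and its lung and hypoxia form Cox4i2, at 6.18 log2, by -0.0285 ± 0.0929. Cox6a1 and Cox6b1, the general forms of VIa and VIb, were 0.16 ± 0.117 and 0.189 ± 0.142 higher in HFD females. The muscle form Cox6a2 and the testis form Cox6b2 averaged 5.42 and 5.23 log2 and differed by 0.0732 ± 0.143 and -0.0955 ± 0.0924. Cox6b2 was the single subunit whose HFD females (5.15, 5.08 and 5.08) all lay below the LFD females (5.16, 5.24 and 5.19). Complex IV thus held 4 of the 8 subunits that were lower in HFD females, and the dim paralogues Cox4i2, Cox6b2 and Cox8c were among them.

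**Figure D4:**
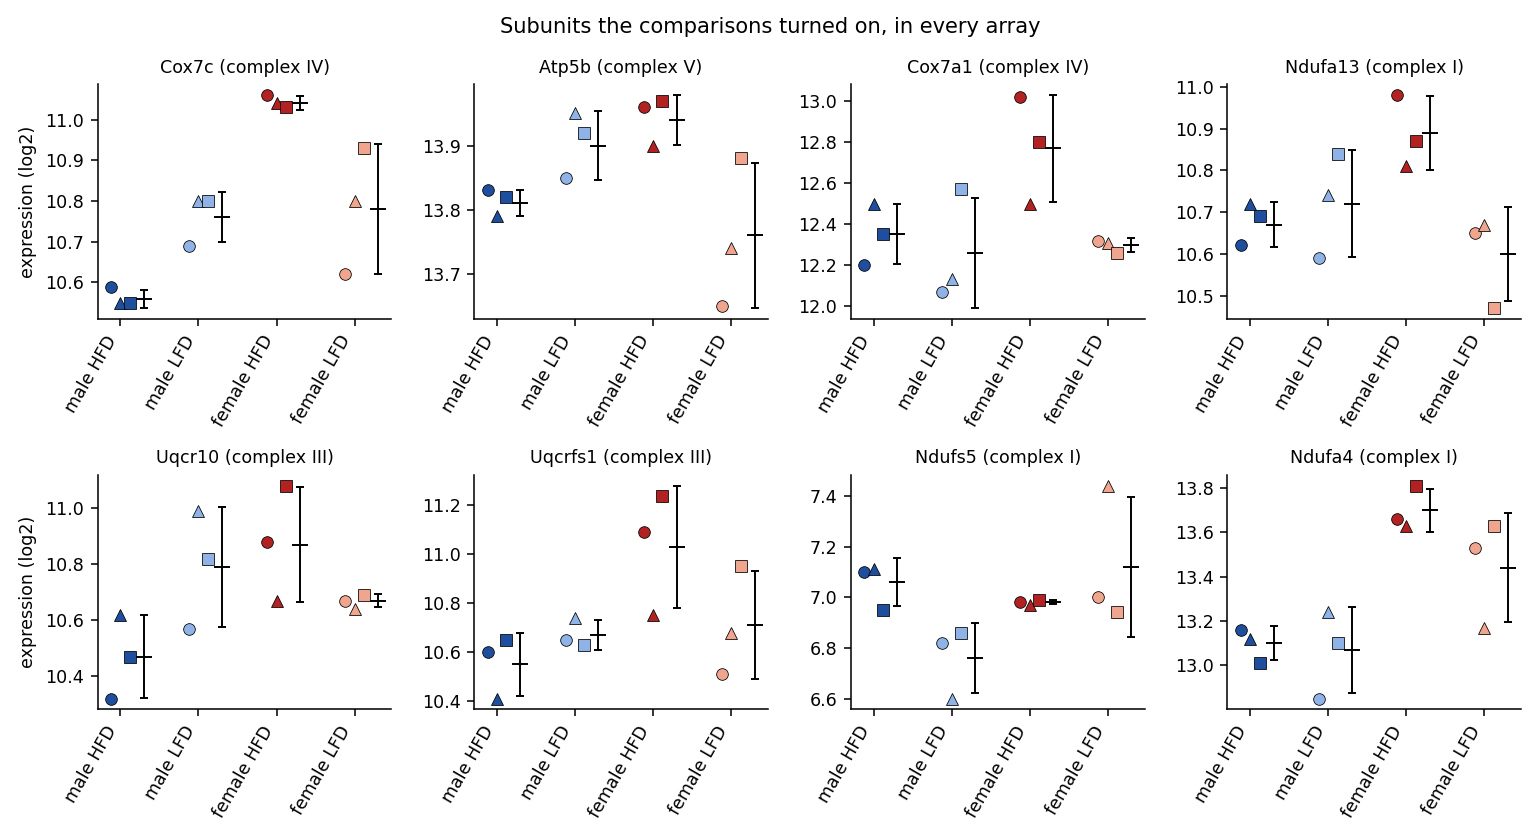
Expression (log2, vertical axis) of 8 subunits in every array, by group (horizontal axis); symbols are replicates and the bar beside them is the mean ± SD of 3 arrays, with a separate vertical scale for each gene. Cox7c and Atp5b separate the diets in opposite directions in the 2 sexes, and Ndufa4 is lower in males.

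In complex I, Ndufa13, also known as GRIM-19 and needed for assembly of the complex, read 10.98, 10.81 and 10.87 in HFD females and 10.65, 10.67 and 10.47 in LFD females. The groups did not overlap, and the difference was 0.292 ± 0.0942 (adjusted p 0.724 in limma). The male arrays overlapped (10.62, 10.72 and 10.69 on the HFD, 10.59, 10.74 and 10.84 on the LFD). Ndufs3, a core subunit of the arm that reaches into the matrix, read 10.14, 10 and 10.11 in HFD females and 9.85, 9.89 and 9.86 in LFD females, again without overlap (0.218 ± 0.0743, adjusted p 0.744). Female HFD replicate 2, in which the module as a whole was not raised, thus lay above the LFD females for this gene. By definition it did so for each of the 10 subunits whose HFD females all lay above the LFD females. Ndufa8, a subunit of the intermembrane space face, differed by 0.238 ± 0.103 with overlapping arrays (11.57, 11.49 and 11.68 against 11.15, 11.33 and 11.55).

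Ndufs5, a subunit on the intermembrane space side of the membrane arm, was 1 of 4 complex I genes with a mean higher in HFD males and lower in HFD females. It read 7.10, 7.11 and 6.95 in HFD males and 6.82, 6.60 and 6.86 in LFD males, with no overlap, at 0.297 ± 0.127 (adjusted p 0.616 in limma). In females it was -0.145 ± 0.127, with LFD replicate 2 high at 7.44 and the other 5 arrays between 6.94 and 7.0. Ndufa3, an accessory subunit of the membrane arm, showed the widest gap between the sexes, -0.291 ± 0.149 in males and 0.258 ± 0.149 in females, a difference of -0.549 ± 0.211. Its HFD males (9.39, 9.32 and 9.47) lay below its LFD males (9.59, 9.60 and 9.85), while its females overlapped because LFD replicate 3 read 10.02. The subunit-like Ndufa4l2, known as a HIF-1 target, averaged 4.18 log2 and was 0.273 ± 0.144 in males and 0.0514 ± 0.144 in females.

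All 4 genes of complex II were higher in HFD females and lower in HFD males in their means, with no unadjusted p below 0.05 within either sex. Sdha, the flavoprotein that binds succinate, read 12.67, 12.72 and 12.71 in HFD females and 12.46, 12.64 and 12.54 in LFD females without overlap (0.154 ± 0.0789). Sdhb, the iron-sulfur subunit, differed by 0.0342 ± 0.0935. The membrane anchors Sdhc and Sdhd differed by 0.167 ± 0.171 and 0.27 ± 0.157 in females and by -0.203 ± 0.171 and -0.233 ± 0.157 in males. Sdhd read 13.98, 13.67 and 13.80 in HFD females and 13.40, 13.36 and 13.88 in LFD females, where replicate 3 lay among the HFD values.

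In complex III, Uqcr10, a small subunit beside cytochrome c1, had the largest negative male difference of the module. HFD males read 10.32, 10.62 and 10.47 and LFD males 10.57, 10.99 and 10.82, overlapping at 1 array (-0.324 ± 0.13, adjusted p 0.585 in limma). It was 0.205 ± 0.13 in females, and the difference between the sexes was -0.529 ± 0.184. Uqcrfs1, the Rieske iron-sulfur protein, read 11.09, 10.75 and 11.24 in HFD females and 10.51, 10.68 and 10.95 in LFD females (0.315 ± 0.139), with overlap. Uqcrh, the hinge protein that helps dock cytochrome c, did not overlap in females (13.43, 13.35 and 13.44 against 13.26, 13.26 and 13.33, difference 0.124 ± 0.102). The core proteins Uqcrc1 and Uqcrc2 each differed by 0.14 in females and by -0.0573 and -0.087 in males. Uqcrb, near the ubiquinone site, and the small subunit Uqcr11 were 0.117 ± 0.102 and 0.106 ± 0.115 in females and 0.0602 and 0.0221 in males.

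In complex V, Atp5b, the catalytic beta subunit, read 13.83, 13.79 and 13.82 in HFD males and 13.85, 13.95 and 13.92 in LFD males. In females it read 13.96, 13.90 and 13.97 on the HFD and 13.65, 13.74 and 13.88 on the LFD. Both sexes separated the diets, in opposite directions (-0.0921 ± 0.0798 and 0.187 ± 0.0798), with a difference between them of -0.279 ± 0.113 (adjusted p 0.516 in limma). Atp5d, the delta subunit of the central stalk, was 0.262 ± 0.117 in females and -0.139 ± 0.117 in males, and the small membrane subunit Atp5mpl 0.272 ± 0.111 and -0.0603 ± 0.111. The peripheral stalk genes Atp5pb (subunit b), Atp5j (factor 6) and Atp5o (OSCP) were 0.141 ± 0.111, 0.185 ± 0.0916 and 0.122 ± 0.0992 in females and -0.139, 0.043 and 0.0461 in males, with overlap in both sexes. The 3 genes for subunit c, the ring that turns in the membrane, gave 0.162 ± 0.185 (Atp5g1), 0.2 ± 0.119 (Atp5g2) and 0.109 ± 0.0915 (Atp5g3) in females, and -0.167, -0.118 and -0.128 in males. Of these, Atp5g2 was read here by a cluster on chromosome 7 although its gene lies on 15. A cluster on 15 of like brightness differed by 0.253 in females and -0.207 in males.

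Averaged over the diets, most subunits were lower in males than in females. A total of 69 of 86 subunits were lower in males and 17 higher, where 49.0% of all clusters and 40.6% of those of at least 8 log2 were higher. The median was -0.125, against -0.0395 over the bright clusters. The gap lay mostly in the HFD groups, where the 86 subunits averaged -0.085 in males and 0.123 in females. On the LFD they averaged -0.036 and -0.001, and complex II was higher in males there (0.028 against -0.039). At an unadjusted p below 0.05, 28 subunits were lower and 3 higher (7.25% and 6.18% of all clusters, 18.5% and 10.6% of bright ones). The median was -0.146 in complex I (34 of 38 lower), -0.114 in II, -0.115 in III, -0.0426 in IV (12 of 19 lower) and -0.128 in V (13 of 17 lower). The number lower at that level ran from 14 (without female HFD replicate 3) to 39 (without female HFD replicate 2) when arrays were left out.

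One subunit passed the adjusted threshold, as did 0.45% of all clusters (0.25% higher and 0.2% lower in males). Ndufa4, which its symbol places in complex I but whose protein is now counted as a subunit of complex IV, read 13.16, 13.12 and 13.01 in HFD males and 12.85, 13.24 and 13.10 in LFD males. It read 13.66, 13.63 and 13.81 in HFD females and 13.53, 13.17 and 13.63 in LFD females. A single female array, LFD replicate 2, lay among the males. The difference was -0.492 ± 0.0932 (0.711-fold), with an adjusted p of 0.04997 in limma, just under the threshold, and between 0.0264 and 0.134 when 1 array was left out. It passed without female LFD replicate 2 or male LFD replicate 2, and in none of the other 10 such fits. It also missed the threshold after quantile normalisation (-0.426) and after centring (-0.498).

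Ndufc2 and Ndufs1 followed. Ndufc2, an accessory subunit of the membrane arm, was -0.42 ± 0.0872 (adjusted p 0.0596 in limma), and Ndufs1, the largest core subunit, -0.282 ± 0.0616 (adjusted p 0.0679). Ndufs1 read 11.60 to 11.76 in the 6 male arrays and 11.84 to 12.13 in the 6 female arrays, which did not overlap. The complex IV subunit Cox7b was the other such case, at 12.72 to 12.82 in males and 12.83 to 13.04 in females (-0.175 ± 0.053), and 0.729% of all clusters had every male array below every female array and 0.57% above, the latter seen in 0 subunits. Cox7c was -0.25 ± 0.0625 (adjusted p 0.1). Its means were 10.56 in males and 11.04 in females on the HFD, but 10.76 and 10.78 on the LFD. When only clusters of at least 8 log2 were tested, Ndufa4, Ndufs1, Ndufc2, Cox7c and Cox7b passed, with adjusted p values from 0.02 to 0.044, and 9.08% of those clusters passed. In the other direction, the flavoprotein subunit Ndufv3 was 0.178 ± 0.0599 and Cox6a1 0.185 ± 0.0825 higher in males (adjusted p 0.211 and 0.359), and the dim Cox6b2 0.162 ± 0.0653.

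Promoter letters are shown for Sdhd, Ndufs3 and Ndufa8, members of the module that were higher in HFD females and whose 250 bases before the start hold a motif of a factor known for nuclear genes of the respiratory chain, and for Cox7c, described above, which holds none. Capitals mark the NRF1 motif of 10 letters or CCGGAAG (the ETS family, which includes GABP), found on either strand. Sequences are from RefSeq on GRCm38.p6, written 5′ to 3′ on the strand of the gene.
Sdhd (chr9:50603850-50604099, minus strand): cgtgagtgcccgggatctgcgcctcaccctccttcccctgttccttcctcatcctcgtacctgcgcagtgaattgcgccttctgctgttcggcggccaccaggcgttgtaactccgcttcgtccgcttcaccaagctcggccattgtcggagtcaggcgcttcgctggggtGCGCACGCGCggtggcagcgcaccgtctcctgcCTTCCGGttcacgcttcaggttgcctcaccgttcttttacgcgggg
Ndufs3 (chr2:90904722-90904971, minus strand): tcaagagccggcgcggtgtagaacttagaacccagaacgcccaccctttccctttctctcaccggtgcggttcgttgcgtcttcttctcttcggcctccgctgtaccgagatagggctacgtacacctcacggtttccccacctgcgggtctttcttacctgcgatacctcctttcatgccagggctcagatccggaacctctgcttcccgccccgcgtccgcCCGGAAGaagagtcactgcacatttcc
Ndufa8 (chr2:36049339-36049588, minus strand): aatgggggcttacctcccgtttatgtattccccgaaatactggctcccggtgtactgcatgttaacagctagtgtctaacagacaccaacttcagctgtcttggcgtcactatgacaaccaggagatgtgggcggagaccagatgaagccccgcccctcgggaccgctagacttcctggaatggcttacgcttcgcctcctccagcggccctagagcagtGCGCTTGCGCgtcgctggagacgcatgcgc
Cox7c (chr13:86046796-86047045, minus strand): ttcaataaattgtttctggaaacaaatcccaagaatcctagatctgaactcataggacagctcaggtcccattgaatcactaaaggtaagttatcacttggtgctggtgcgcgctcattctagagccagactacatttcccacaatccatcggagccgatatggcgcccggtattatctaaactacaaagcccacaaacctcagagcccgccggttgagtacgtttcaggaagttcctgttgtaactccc

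In Sdhd the NRF1 letters began 79 bases before the start and the ETS letters, on the other strand, 46 before it. In Ndufs3 the ETS letters began 27 bases before the start, and in Ndufa8 the NRF1 letters 30 before it. Windows of 300 bases, 250 before the start and 50 after, were at hand for 67 of the 86 subunits. NRF1 letters stood in 20.9% of these subunits and in 5.19% of all genes with a window (7.17% of protein-coding ones). The shares were 25.4% against 9.93% (12.9%) for the ETS letters, 13.4% against 3.19% (3.57%) for AAGATGGC (YY1) and 2.99% against 0.466% (0.377%) for TCAAGGTCA (estrogen-related receptors). By complex, NRF1 letters were found in 4 of 31 genes of I, 2 of 3 of II, 1 of 5 of III, 1 of 13 of IV and 6 of 15 of V. In no subunit window did letters of different motifs share bases. A match is a description of these letters and no measure of binding.

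The rest of the mitochondrial programme was read from lists drawn up by function. In females the HFD minus LFD difference was above 0 for 16 of 16 electron carriers and coenzyme Q genes (median 0.0951), 16 of 16 genes of the TCA cycle and pyruvate dehydrogenase (0.104), 30 of 40 assembly factors (0.0603), 62 of 74 mitochondrial ribosomal proteins (0.0566) and 11 of 13 antioxidant enzymes (0.121). In males the same lists stood at -0.0733 (4 of 16 above 0), -0.0975 (0 of 16), -0.0456 (11 of 40), -0.064 (15 of 74) and -0.142 (2 of 13). Bright clusters in general had a female median of 0.0494 with 66.5% above 0 and a male median of -0.074 with 27.9% above 0. In females 20 of 40 assembly factors and 52.7% of the mitochondrial ribosomal proteins lay above that female median, so these lists were near the bright background. The shares were 81.2% of the electron carriers, 87.5% of the TCA cycle list and 84.6% of the antioxidant enzymes. Some assembly factors, such as Ndufaf2 at 6.82 log2, were dimmer than the bright clusters. Over all clusters, 44.6% were above 0 in females. Of 9 uncoupling and nucleotide carriers, 5 were above 0 in females (median 0.0509) and 3 in males (-0.0354). No gene of these lists passed the adjusted threshold in a diet comparison. Cytosolic ribosomal proteins, which are no part of the mitochondrion, stood at 0.041 in females (29 of 43) and -0.088 in males (3 of 43), and glycolysis at 0.158 (9 of 12) and 0.0352 (8 of 12).

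The examples of diet differences that follow were each among the 2 genes of their list with the smallest p in a diet comparison. The examples between the sexes, at the end, were named after their values were seen. Cyc1, the cytochrome c1 of complex III that the symbol rule does not take in, was 0.258 ± 0.101 in females and -0.266 ± 0.101 in males, with adjusted p values of 0.771 and 0.564 in limma. Coq10b, a coenzyme Q binding protein, was 0.402 ± 0.163 in females, and Coq6, an enzyme of coenzyme Q synthesis, -0.2 ± 0.0781 in males. Of the mitochondrial ribosomal proteins, Mrps21 was 0.36 ± 0.11 in females and Mrps18b -0.241 ± 0.0843 in males. The glycolytic enzyme Pgam1 was 0.318 ± 0.112 in females. Of the assembly factors, Cox11, which delivers copper to complex IV, was 0.231 ± 0.0862 in females, and Cox10, which makes its heme, -0.183 ± 0.091 in males. Pdha1, the E1 subunit of pyruvate dehydrogenase, was -0.248 ± 0.123 in males, Idh3g of the TCA cycle 0.214 ± 0.0979 in females and the superoxide dismutase Sod1 0.359 ± 0.0963 in females. Among regulators of mitochondrial genes, Ppargc1b was -0.252 ± 0.126 in males and Gabpb1, a GABP subunit, -0.155 ± 0.0757, and 11 of 14 lay above 0 in females (median 0.0348) and 2 of 14 in males (-0.122). Averaged over the diets, cytochrome c itself, Cycs, was -0.376 ± 0.0868 in males against females (adjusted p 0.0794 in limma), Cox17, a copper chaperone of complex IV, -0.392 ± 0.0827 (0.0617), and the adenine nucleotide carrier Slc25a4 -0.493 ± 0.0927 (0.0482). The lactate dehydrogenase subunit Ldhb of the glycolysis list was -0.585 ± 0.0988 (0.0344), and it and Slc25a4 were the 2 genes of the lists by function that passed the threshold between the sexes.

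Markers of other cells also differed by diet in their means. In females, the 8 measured fibroblast genes were all lower on the HFD (median -0.17), their level being 5.11 to 5.28 in the HFD and 5.42 to 5.68 in the LFD arrays, and 9 of 10 T and NK cell genes were lower (median -0.31, 5.13 to 5.22 against 5.32 to 5.57). Goblet and secretory genes were lower for 7 of 9 (median -0.236, 14.8 to 15.23 against 15.24 to 15.66), with Ang4 at -2.14 ± 0.448. In males fibroblast genes were above 0 for 8 of 8 (median 0.111, 5.26 to 5.6 against 5.21 to 5.44), B and plasma cell genes for 8 of 8 (0.166, 4.93 to 5.1 against 4.76 to 4.94) and smooth muscle genes for 7 of 7 (0.0683, 5.4 to 5.5 against 5.29 to 5.42). Stem and cycling cell genes were below 0 for 9 of 9 in males (median -0.173, 8.52 to 8.9 against 8.88 to 9.01) and 7 of 9 in females (-0.138). In females 8 of 10 epithelial, 5 of 9 colonocyte, 7 of 11 small intestinal, 2 of 8 myeloid and 2 of 7 endothelial genes were above 0. The male counts of these lists were 6 of 10, 5 of 9, 4 of 11, 5 of 8 and 5 of 7. Goblet and secretory genes were above 0 for 1 of 9 in males too (median -0.0679), and T and NK cell genes for 6 of 10. B and plasma cell genes were above 0 for 2 of 8 in females and smooth muscle genes for 2 of 7. Of all clusters tested, 44.6% were above 0 in females and 54.9% in males. For clusters of at least 8 log2 the shares were 66.5% and 27.9%. Between the sexes, goblet and secretory genes were 14.8 to 15.66 in females and 15.53 to 15.83 in males. The part of these cells in the differences of the subunits was not tested.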

How the data were processed

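The deposited table gave, for every array, a log2 value of each transcript cluster. RMA (background correction, quantile normalisation and summary of probes) is named in the notes of the submitters, and the study's methods name Partek software for the log2 step, with no versions given in the sources used here. Values reached 19.9, above the 16 log2 of a 16-bit scan, and the sources used here do not state how the scale was extended. Probe intensities were not used. The table held 72688 features, of which 6732 with numeric identifiers were left out.

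Symbols came from the platform annotation (30638 clusters with 1 symbol, 2176 with several, 33142 with none), updated through the RefSeq gene table (330 changed). A gene with more than 1 cluster (3 members) was read by the brightest, and 5 clusters with several symbols were not used. For Atp5l and Atp5g2 the brightest cluster lies on another chromosome than the gene.

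With limma 3.58.1 in R 4.3.3, the 4 group means were estimated jointly from the 12 arrays (8 residual degrees of freedom, 3.64 added by moderation). Tests were two-sided, adjusted by Benjamini-Hochberg over all 65956 clusters (threshold 0.05), and the script was tested on simulated data. SEs are moderated, and SDs and SEs rest on few arrays. Members, gene lists and alternatives were chosen with earlier results of these data known, so lists are described by counts and medians without a test. Named members were, in each complex, the 3 with the smallest p in each diet comparison, all of complex II, any past the adjusted threshold, any with p below 0.05 against the median of its complex, and tissue-form pairs. For other lists the 2 with the smallest p in each diet comparison were eligible. Ndufc2, Ndufs1, Cycs, Cox17, Slc25a4 and Ldhb were named after their values were seen, as were the 4 promoters. Alternatives covered scaling, moderation, array weights, filters, the cluster chosen, a replicate block and leaving out each array.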

Additional observations from a re-analysis of the deposited data

Results flagged for a closer look

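Cox7c and Atp5b were singled out because the HFD and LFD arrays did not overlap in either sex and lay in opposite order in males and females. The male minus female difference of the diet effects was -0.457 for Cox7c and -0.279 for Atp5b, with adjusted p values of 0.442 and 0.516 in limma, so neither passed the threshold, and 2 of 86 subunits showed this pattern against 1.13% of all clusters. Without each array in turn the value ran from -0.532 to -0.374 for Cox7c and from -0.34 to -0.228 for Atp5b.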

How the results depend on the processing

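No subunit passed the adjusted threshold in a diet comparison or in the difference between the diet effects under any setting, including each of the 12 fits without 1 array. For the sex comparison the count was 1 as reported and 0 after quantile normalisation, centring on array medians, robust variances, no moderation and the replicate block, 2 with array weights, 3 with only clusters above the median mean or with 1 symbol, and 5 with only clusters of at least 8 log2. Without 1 array it ran from 0 to 2. The median over all subunits ran, without 1 array, from -0.1 to -0.0143 in males, 0.0764 to 0.194 in females, 0.00408 to 0.0638 averaged over the sexes, -0.245 to -0.137 for the difference between the diet effects and -0.155 to -0.104 between the sexes. The difference between the diet effects was -0.291 after centring, where that of the bright clusters was -0.244. The cause of these changes was not tested. Among complexes, the male median of IV reached 0.027 without male LFD replicate 3, and of the medians averaged over the sexes those of I, II and V turned below 0 without male LFD replicate 1 (-0.000575, -0.0431 and -0.00678), that of II in 5 of the 12 such fits. Selected differences of named subunits, recomputed under other scaling, moderation or without an array, kept their direction. This selection did not cover every subunit, and in males the number above 0 changed with the scaling, as given above. The second cluster of Atp5d turned its male difference from -0.139 to 0.239 and the difference between the diet effects from -0.401 to 0.148.

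Same-numbered arrays of different groups shared little of their deviation (18 pairs, r from -0.127 to 0.162, 3 over 0.1). Their median r was 0.035, against -0.019 for pairs of other numbers. With 3 arrays in a group, these values cannot exclude that the numbers pair the samples. With the replicate number as a block, 8 subunits in place of 10 were higher in HFD females at an unadjusted p below 0.05, and 0 in place of 1 passed the adjusted threshold between the sexes. Arrays give no depth, and the signal of dim subunits over background was not tested.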

Other observations

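Atp5l, a subunit of the membrane part of complex V, was read by clusters that differ in position. The brightest, on chromosome 5 while the gene lies on 9, averaged 15.03 log2 and was -0.366 in males against females (unadjusted p 0.00715), and a cluster on chromosome 9 at 8.06 log2 gave -0.298 (0.00197). A further cluster on 9 averaged 4.87 log2 and gave -0.074. For Atp5d, the cluster used here averaged 12.28 log2 and differed by -0.139 in HFD males, while a second on the same chromosome at 5.14 log2 differed by 0.239 (unadjusted p 0.0205).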
